A study of Mus musculus with 23 samples.

Results

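The N-methyl-D-aspartate (NMDA) receptor subunit genes Grin1, Grin2a, Grin2b, Grin2c, Grin2d, Grin3a and Grin3b were followed across mouse hippocampal RNA libraries. They were taken by gene symbol, and all 7 were found among the 39017 genes of both deposited tables. The series asked how chronic social defeat stress (CSDS) changes hippocampal gene expression in wild-type (WT) mice and in mice labelled as knockout for Nrsn2, the gene of neurensin 2, a small neuronal membrane protein. In CSDS a mouse meets an unfamiliar aggressive CD-1 mouse every day and then lives beside it behind a perforated divider. The groups were KO-labelled mice after CSDS, KO-labelled controls, WT mice after CSDS and WT controls, with 5 libraries each. The labels used here give no strain, age, sex or details of the knockout allele. They number the libraries but do not say that each came from its own animal, so each p-value reflects variation among these libraries, which may be technical.

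NMDA receptors are cation channels built from 4 subunits. Each holds the obligatory GluN1 subunit, which binds the co-agonists glycine and D-serine, together with GluN2 subunits, which bind glutamate, or with GluN3 subunits, which bind glycine. In receptors with GluN2A or GluN2B, the channel opens only when agonists are bound and depolarisation removes a magnesium ion from its pore. The calcium that then enters starts synaptic plasticity in the hippocampus. GluN2A and GluN2B are the usual partners of GluN1 in hippocampal principal neurons.

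All 7 genes have the same coordinates in the tables (mm10) and in GENCODE M21, where each is annotated as protein-coding. Grin1 (ENSMUSG00000026959) lies on chromosome 2 from 25291181 to 25319187. Grin2a (ENSMUSG00000059003) spans chromosome 16 from 9567898 to 9995560, and Grin2b (ENSMUSG00000030209) spans chromosome 6 from 135713233 to 136173511. Grin2c (ENSMUSG00000020734) lies on chromosome 11 from 115249169 to 115267243, and Grin2d (ENSMUSG00000002771) on chromosome 7 from 45831883 to 45878378. Grin3a (ENSMUSG00000039579) lies on chromosome 4 from 49661611 to 49845744. These 6 genes are on the minus strand, while Grin3b (ENSMUSG00000035745) is on the plus strand of chromosome 10 from 79970715 to 79977190. The genes are thus on 7 different chromosomes.

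The promoters of the members with the highest and the lowest level, Grin1 and Grin3b, are shown 5′ to 3′ from 250 bases before to 50 bases after the annotated start. They come from RefSeq (GRCm38.p6), whose table matched 4 of the 7 genes, the others being Grin2c and Grin2d. Grin2a, Grin2b and Grin3a are named only. Grin1 is at chr2:25319138-25319437 on the minus strand and Grin3b at chr10:79970474-79970773 on the plus strand. Capitals mark the motifs found.
Grin1: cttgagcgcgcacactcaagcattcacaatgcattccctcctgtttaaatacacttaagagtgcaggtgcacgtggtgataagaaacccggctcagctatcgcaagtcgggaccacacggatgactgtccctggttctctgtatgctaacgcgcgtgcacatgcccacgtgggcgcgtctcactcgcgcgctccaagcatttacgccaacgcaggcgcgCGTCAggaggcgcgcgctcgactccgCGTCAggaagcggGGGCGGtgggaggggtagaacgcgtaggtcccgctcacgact
Grin3b: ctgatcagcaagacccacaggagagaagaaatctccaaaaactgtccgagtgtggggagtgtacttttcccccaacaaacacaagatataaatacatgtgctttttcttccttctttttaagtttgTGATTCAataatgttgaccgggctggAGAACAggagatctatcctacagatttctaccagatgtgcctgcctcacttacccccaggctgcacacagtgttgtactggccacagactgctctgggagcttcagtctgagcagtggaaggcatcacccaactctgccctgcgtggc
The motifs searched, on both strands, were the GC box GGGCGG, the short cyclic AMP response motif TGACG and its full form TGACGTCA, the AP-1 site TGANTCA and the short glucocorticoid response motif TGTTCT. The short cyclic AMP motif is contained in its full form. Grin1 held 1 GC box and 2 short cyclic AMP motifs, and Grin3b held 1 AP-1 site and 1 short glucocorticoid motif. Of 32851 promoters of this length, 35.7% held the GC box, 20.8% the short and 1.8% the full cyclic AMP response motif, 7.8% the AP-1 site and 19% the short glucocorticoid motif. Grin2c held 3 GC boxes, the second and last sharing a base, and Grin2d held none of these motifs. The GC content was 60.7% for Grin1, 70.0% for Grin2c, 56.0% for Grin2d and 48.3% for Grin3b, against a median of 52.7% over all promoters.

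The tables give levels as RPKM, read numbers scaled to gene length and library size. Each library held an estimated 25.7 to 55.7 M reads. Nrsn2 was not lower under the knockout label: it averaged 34.1 ± 2.34 RPKM in KO-labelled CSDS, 31.2 ± 1.93 in KO-labelled control, 29.7 ± 2.55 in WT CSDS and 29.1 ± 2.42 RPKM in WT control libraries (SD, n = 5 each). The genotype is therefore called by its label throughout. Control 10 of each genotype stood apart by sex-linked genes, chosen after their values were seen. Xist, which marks females, was at 48.2 RPKM in the KO-labelled one and 56.5 RPKM in the WT one. In each other library Xist was at most 0.0618 RPKM. Ddx3y, a Y-linked gene, was at 0.499 RPKM in the KO-labelled one and 0.163 RPKM in the WT one. In each other library Ddx3y was at least 9.66 RPKM. Both libraries are controls, so this pattern was unbalanced between control and CSDS libraries in each genotype. The 5 excitatory neuron markers, which a hippocampal sample should hold, summed to 691 to 806 RPKM in the 20 libraries.

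Grin1 had the highest level of the subunit genes and Grin3b the lowest. Over the 20 libraries the mean level was 45.5 RPKM for Grin1, 23.7 for Grin2b, 16.9 for Grin2a, 7.25 for Grin2c, 3.87 for Grin3a, 2.29 for Grin2d and 0.299 RPKM for Grin3b. In this order each gene was above the next in 20 of 20 libraries. The ranges of neighbouring genes overlapped only between Grin2b and Grin2a. Within libraries Grin2b was 1.25 to 1.53 times Grin2a in RPKM. Of the summed RPKM of the 4 GluN2 genes, Grin2b made up 47.2%, Grin2a 33.6%, Grin2c 14.6% and Grin2d 4.61% on average. Grin1 RPKM divided by that sum averaged 0.911 ± 0.0359 in KO-labelled CSDS, 0.883 ± 0.113 in KO-labelled control, 0.981 ± 0.0865 in WT CSDS and 0.877 ± 0.0210 in WT control libraries (SD, n = 5 each). These shares are a description without a test.

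The place of Grin2a in this order depends on the length by which its reads were divided. The authors' mean abundance scaled to library size, divided by their mean RPKM, gives a length of 5.30 kb for Grin2a, against 17.9 kb of exons in GENCODE M21. For Grin1 the same calculation gave 9.70 kb against 9.7 kb, for Grin2b 24.8 against 24.8 kb, for Grin2c 5.04 against 5.04 kb and for Grin3a 12.3 against 12.3 kb. Grin2d came to 5.88 against 6.66 kb, and Grin3b to 3.44 against 3.30 kb. Of 16536 genes, 64.2% had lengths within 5% of each other and 8.76% came to under 0.5 of the annotated length. If the reads of Grin2a came from all its annotated exons, its mean would be 4.99 RPKM, below Grin2c. The shares and ratios above depend on this too. With every member scaled to its annotated exon length, a calculation chosen after seeing the data, Grin2b made up 62.2% of the GluN2 sum, Grin2c 19.3%, Grin2a 13.1% and Grin2d 5.39% on average. On that scale Grin2b was 4.23 to 5.16 times Grin2a within libraries, and Grin1 was 1.21 times the GluN2 sum on average. Which exons were counted is not given in the sources used here. Ratios of Grin2a RPKM between libraries do not depend on the length used as divisor. The log2(RPKM + 0.5) values tested below do, through the added 0.5. Whether the comparisons depend on which exons were counted was not tested.

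**Figure D1:**
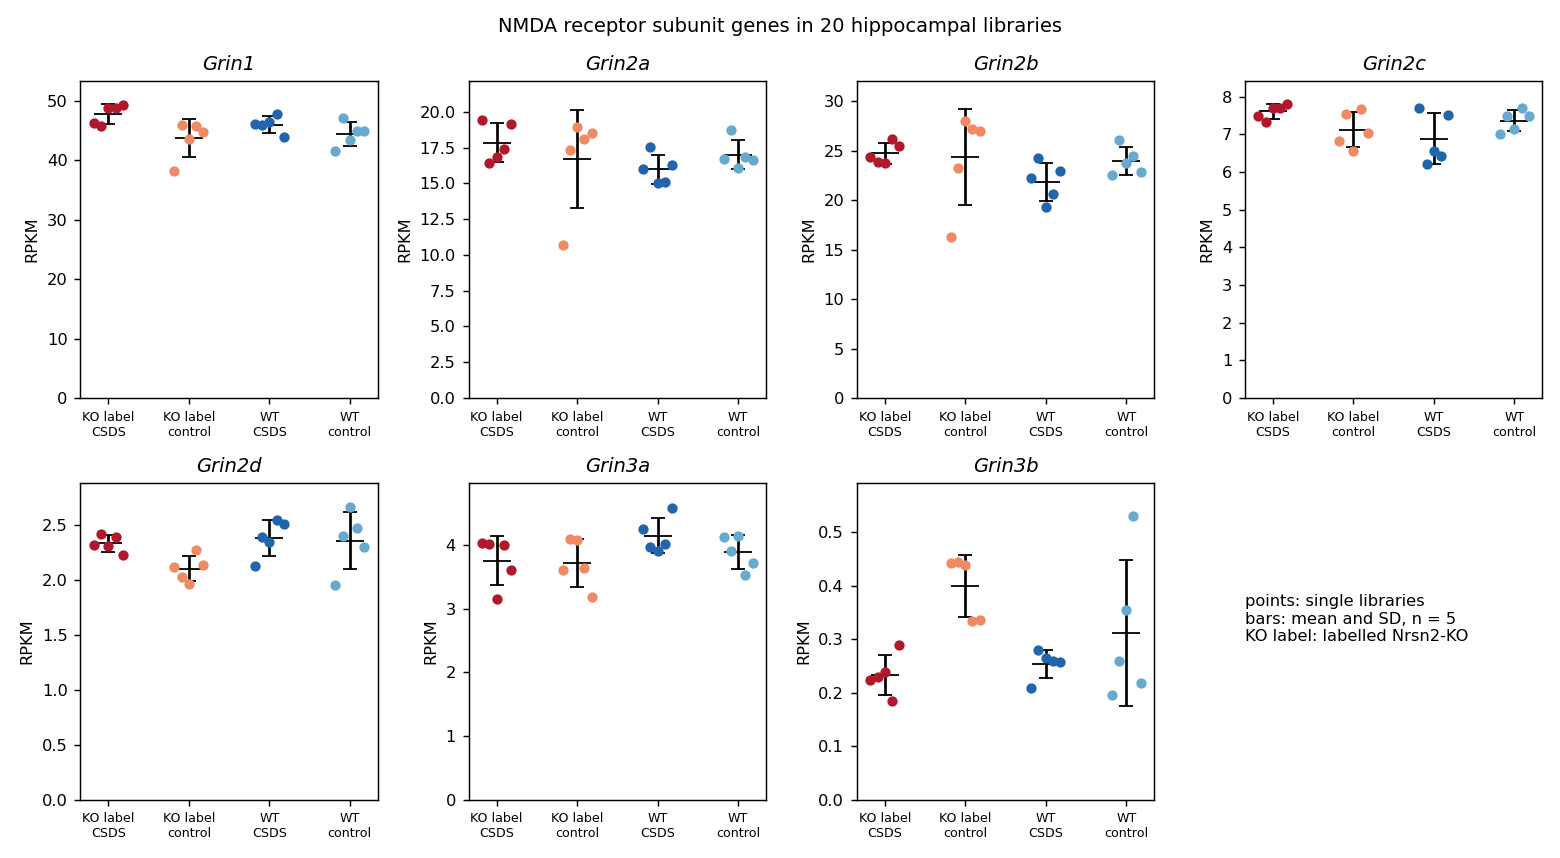
RPKM of each subunit gene (vertical axes, from 0) in KO-labelled CSDS, KO-labelled control, WT CSDS and WT control libraries. Points are single libraries and bars show the mean and SD of 5. Grin3b in KO-labelled mice is the pair of groups without overlap (0.184 to 0.289 RPKM after CSDS, 0.334 to 0.444 in controls), and KO-labelled control 10 is the low point of Grin2a and Grin2b.

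CSDS against control asks how defeat changed the subunit genes within each genotype, and no subunit gene above the filter on low values passed the test. With limma-trend on log2(RPKM + 0.5), 0 of the 6 tested members passed an adjusted p of 0.05 in KO-labelled mice, where 15% of 18259 genes did, and 0 of 6 in WT mice, where 22.4% of 18274 genes did. Of all genes tested, 6.17% were called higher and 8.88% lower in KO-labelled mice, and 9.88% higher and 12.5% lower in WT mice. The number with an unadjusted p under 0.05 was 2 (Grin1 and Grin2d) in KO-labelled and 0 in WT mice. For such counts, here and below, the share of all genes with an unadjusted p under 0.05 was not counted. It is larger than the share that passed the adjusted threshold, so that share is no background for these counts. They are therefore not read as a result about the members. The seventh, Grin3b, had a mean below the filter of 0.5 RPKM. By the authors' deposited values 1 of the 7 members (Grin3b) had a false discovery rate under 0.05 in KO-labelled mice, where 17.1% of 17840 genes did, and 0 in WT mice, where 21% did. Their control means also hold 3 libraries titled as controls that were left out here because their treatment field says CSDS. On the log2 scale the median difference of the 6 members was 0.10 in KO-labelled mice, with -0.01 over all tested genes, and -0.04 in WT mice, with -0.00 over all tested genes. In KO-labelled mice 6 of 6 differences were positive, and in WT mice 3 of 6 were. Without KO-labelled control 10 the KO-labelled differences of Grin2a and Grin2b were negative (-0.03 and -0.09). In bulk tissue, fewer cells of a type and less RNA per cell cannot be told apart.

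Grin1, which encodes the obligatory GluN1, stood at 46.3, 45.7, 48.8, 48.8 and 49.3 RPKM in KO-labelled CSDS libraries, against 46.0, 43.6, 45.8, 44.8 and 38.3 RPKM in KO-labelled controls. Of the 5 CSDS libraries 4 were above every control, and control 10 was the lowest of the 20 libraries. In WT mice Grin1 was 46.0, 45.9, 46.5, 47.7 and 43.9 RPKM after CSDS, against 47.1, 43.4, 45.0, 45.0 and 41.6 RPKM in controls, and the groups overlapped throughout. The log2 difference between CSDS and control was 0.13 ± 0.05 (SE; limma adjusted p = 0.103) in KO-labelled and 0.05 ± 0.03 (limma adjusted p = 0.319) in WT mice. As folds, the 95% intervals ran from 1.01 to 1.18 in KO-labelled mice and from 0.982 to 1.09 in WT mice.

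Grin2a encodes GluN2A, which becomes more abundant as hippocampal synapses mature. It stood at 19.4, 16.4, 16.8, 17.4 and 19.1 RPKM in KO-labelled CSDS libraries, against 17.3, 18.9, 18.1, 18.5 and 10.7 RPKM in KO-labelled controls. Control 10 was far below the other controls, which lay within the CSDS range. In WT mice Grin2a was 16.03, 17.5, 14.999, 15.1 and 16.3 RPKM after CSDS, against 18.7, 16.1, 16.8, 16.6 and 16.7 RPKM in controls. The groups overlapped, and the 3 lowest values were CSDS libraries. The log2 difference was 0.12 ± 0.14 (SE; limma adjusted p = 0.620) in KO-labelled and -0.09 ± 0.05 (limma adjusted p = 0.231) in WT mice. Without KO-labelled control 10 the KO-labelled difference was -0.03.

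Grin2b encodes GluN2B, the GluN2 subunit that prevails early in life and binds CaM kinase II. It stood at 24.3, 23.8, 23.8, 26.2 and 25.5 RPKM in KO-labelled CSDS libraries, against 23.3, 28.004, 27.2, 27.0 and 16.3 RPKM in KO-labelled controls. Without control 10 at the bottom, 3 of the 4 remaining controls were above every CSDS library. In WT mice Grin2b was 22.2, 24.3, 19.3, 20.6 and 22.9 RPKM after CSDS, against 26.1, 23.7, 24.5, 22.9 and 22.5 RPKM in controls. The 3 lowest values were CSDS libraries and the groups overlapped. The log2 difference was 0.05 ± 0.13 (SE; limma adjusted p = 0.848) in KO-labelled and -0.13 ± 0.06 (limma adjusted p = 0.151) in WT mice. Without KO-labelled control 10 the KO-labelled difference was -0.09. As folds, the 95% intervals ran from 0.851 to 1.25 in KO-labelled mice and from 0.832 to 1.00 in WT mice.

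Grin2c encodes GluN2C, best known from cerebellar granule cells. It stood at 7.49, 7.34, 7.72, 7.71 and 7.81 RPKM in KO-labelled CSDS libraries, against 7.54, 6.56, 7.68, 7.05 and 6.82 RPKM in KO-labelled controls. In WT mice it was 7.69, 6.22, 6.56, 6.43 and 7.53 RPKM after CSDS, against 7.48, 7.16, 7.70, 7.49 and 7.01 RPKM in controls. The KO-labelled CSDS libraries lay close together and overlapped with their controls, while 3 of the 5 WT CSDS libraries were below every WT control. The log2 difference was 0.09 ± 0.04 (SE; limma adjusted p = 0.184) in KO-labelled and -0.10 ± 0.06 (limma adjusted p = 0.264) in WT mice.

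Grin2d encodes GluN2D, which in the adult hippocampus is found mainly in interneurons. It stood at 2.32, 2.42, 2.31, 2.39 and 2.22 RPKM in KO-labelled CSDS libraries, against 2.02, 1.96, 2.27, 2.13 and 2.11 RPKM in KO-labelled controls. Apart from the lowest CSDS and the highest control library the groups were separate. In WT mice Grin2d was 2.12, 2.39, 2.34, 2.54 and 2.50 RPKM after CSDS, against 2.40, 2.66, 2.47, 2.30 and 1.95 RPKM in controls, with wide overlap. The log2 difference was 0.12 ± 0.04 (SE; limma adjusted p = 0.0829) in KO-labelled and 0.01 ± 0.07 (limma adjusted p = 0.899) in WT mice. The summed level of the 8 interneuron markers was 372 to 388 RPKM in KO-labelled CSDS and 331 to 380 RPKM in KO-labelled control libraries, and 4 of the 8 rose. In WT mice the sum was 315 to 357 RPKM after CSDS and 293 to 364 RPKM in controls, and 0 rose while 1 fell. The part of these markers in the Grin2d values was not tested.

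Grin3a encodes GluN3A, a subunit of developing neurons that lowers calcium entry. Its level was 3.15 to 4.03 RPKM in KO-labelled CSDS and 3.18 to 4.08 RPKM in KO-labelled control libraries. In WT mice it was 3.90 to 4.58 RPKM after CSDS and 3.52 to 4.15 RPKM in controls. All 4 ranges overlapped. The log2 difference was 0.01 ± 0.08 (SE; limma adjusted p = 0.936) in KO-labelled and 0.08 ± 0.05 (limma adjusted p = 0.292) in WT mice.

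Grin3b encodes GluN3B, best known from motor neurons, and was the one member whose CSDS and control libraries did not overlap. It stood at 0.224, 0.229, 0.238, 0.184 and 0.289 RPKM in KO-labelled CSDS libraries, against 0.444, 0.438, 0.334, 0.336 and 0.441 RPKM in KO-labelled controls. Every CSDS library was below every control, a pattern that 8.56% of the 30791 genes above 0 showed in either direction. In WT mice 11% of genes had groups without overlap, and 0 of the 7 members did. The mean after CSDS was 0.584 of the control mean. In WT mice Grin3b was 0.209, 0.279, 0.265, 0.259 and 0.257 RPKM after CSDS, against 0.259, 0.355, 0.530, 0.219 and 0.196 RPKM in controls. The WT controls spread across and beyond the whole CSDS range, with control 8 the highest of the 20 libraries.

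Because Grin3b was below the filter, it was tested in other ways chosen after its values were seen. An exact two-sided permutation test of the RPKM values gave p = 0.00794 in KO-labelled mice. That is the smallest value the 252 splits allow and follows from the absence of overlap, so it adds nothing to it. The exact permutation p was 0.437 in WT mice. In the limma fit without a filter, Grin3b fell in KO-labelled mice by 0.29 on the log2(RPKM + 0.5) scale, with an SE of 0.06 and a limma adjusted p of 0.0145. In that fit 7.69% of 30791 genes were called in KO-labelled and 11.4% of 31024 in WT mice. The difference was -0.09 (limma adjusted p = 0.606) in WT mice. The difference of the effects between the genotypes, KO-labelled minus WT, was -0.20 ± 0.12 (SE; limma adjusted p = 0.642), so the effects were not shown to differ, and 0.108% of all genes passed there. Leaving out each of the 10 KO-labelled libraries in turn gave -0.32 to -0.27 with limma adjusted p of 0.0165 to 0.0399. The call depended on how the KO-labelled libraries with conflicting labels, titled as controls but given CSDS in the treatment field, were placed. In them Grin3b was at 0.484 RPKM (library 11) and 0.324 RPKM (library 10B). Placed by title they gave -0.30 (limma adjusted p = 0.00812), and placed by treatment field -0.21 (limma adjusted p = 0.243), which ended the call. The authors' deposited table lists a log2 fold change of 0.76 for control over CSDS in the KO-labelled mice, the opposite direction of division, with a false discovery rate of 0.0051. In WT the authors' deposited table lists 0.22 with a false discovery rate of 0.509. The authors' control means also hold the libraries with conflicting labels.

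These Grin3b values rest on few reads. With the estimated depth they correspond to about 30, 36, 29, 27 and 48 reads in KO-labelled CSDS libraries, 170 in all. KO-labelled controls had about 74, 37, 47, 45 and 76 reads, 279 in all. The WT sums were 192 after CSDS and 239 in controls. GENCODE M21 places 32.1% of the exon bases of Grin3b (1059 of 3296) on exons of Tmem259, which runs on the opposite strand. The library kit keeps no strand, so reads of the shared stretch cannot be told apart. Tmem259 was 13.2 ± 0.394 RPKM in KO-labelled CSDS and 14.4 ± 1.07 RPKM in KO-labelled control libraries (SD, n = 5 each), a log2 difference of -0.11 ± 0.05 (SE; limma adjusted p = 0.142). In WT mice its difference was -0.07 (limma adjusted p = 0.200). Sums of cell type markers and of structural RNAs also differed between the KO-labelled groups. The 5 meningeal fibroblast markers summed to 23.1 to 31.0 RPKM in KO-labelled CSDS and 40.9 to 60.4 RPKM in KO-labelled control libraries, and 5 of 5 fell. The 4 endothelial markers summed to 19.7 to 24.9 RPKM after CSDS and 30.6 to 38.9 RPKM in those controls, and 4 of 4 fell. The 7 structural RNAs summed to 55.1 to 84.8 RPKM after CSDS and 88.0 to 563 RPKM in those controls, and 4 of 7 fell. In WT mice, where Grin3b was not called, the structural RNAs summed to 52.9 to 85.8 RPKM after CSDS and 94.4 to 301 RPKM in controls, and 7 of 7 fell. The endothelial markers summed to 21.9 to 26.3 RPKM after CSDS and 27.1 to 34.2 RPKM in WT controls, and 2 of 4 fell. The meningeal markers summed to 32.8 to 47.1 RPKM after CSDS and 20.7 to 60.0 RPKM in WT controls, and 0 of 5 fell. The part of these markers in the Grin3b values was not tested.

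**Figure D2:**
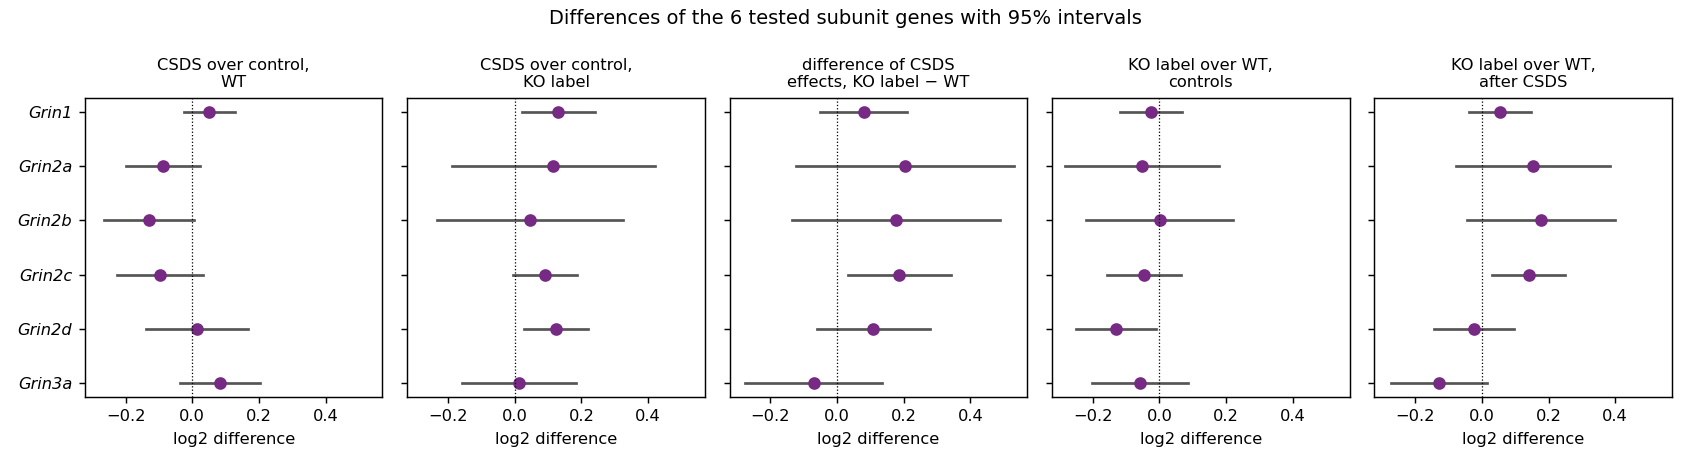
Log2 differences (horizontal axes) of the 6 tested subunit genes in the 5 comparisons, from limma on log2(RPKM + 0.5), with 95% intervals. Each point is 1 gene and values right of 0 are higher in the group named first. All 6 points lie right of 0 for CSDS over control in KO-labelled mice, and adjusted p was 0.0829 or more there.

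The difference of the CSDS effects asks whether defeat acted differently under the knockout label. Here 0 of the 6 tested members passed limma's adjusted threshold, while 0.148% of 18263 genes passed it, 0.0602% as higher and 0.0876% as lower. Of the 6, 1 had an unadjusted p under 0.05, a count without a share of all genes to set beside it. That member was Grin2c, whose effect was 0.19 ± 0.07 higher on the log2 scale in KO-labelled than in WT mice (SE; limma adjusted p = 0.329). For Grin2a and Grin2b the differences of effects were 0.20 and 0.18, with 95% intervals of -0.12 to 0.53 and -0.14 to 0.49. Grin1 had 0.08, Grin2d 0.11 and Grin3a -0.07. The 95% intervals of these 5 genes include 0.

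KO label against WT asks what the genotype label changes, and it was tested among controls and after CSDS. Among controls 0 of the 6 tested members passed limma's adjusted threshold, while 3.95% of 18263 genes passed it, 2.45% as higher and 1.5% as lower. After CSDS 0 of the 6 passed, while 2.24% of the genes did, 1.51% as higher and 0.734% as lower. In each of these comparisons 1 of the 6 had an unadjusted p under 0.05, again without a share of all genes to set beside it. Grin2d averaged 2.10 ± 0.117 RPKM in KO-labelled and 2.36 ± 0.262 RPKM in WT controls (SD, n = 5 each), a log2 difference of -0.13 ± 0.06 (SE; limma adjusted p = 0.222). Without WT control 10, which had the lowest Grin2d of the WT controls, this difference was -0.18 and passed (limma adjusted p = 0.0380). After CSDS, Grin2c averaged 7.61 ± 0.194 RPKM in KO-labelled and 6.88 ± 0.675 RPKM in WT libraries (SD, n = 5 each), a log2 difference of 0.14 ± 0.05 (SE; limma adjusted p = 0.181). Grin2b averaged 24.7 ± 1.09 RPKM in KO-labelled and 21.9 ± 1.94 RPKM in WT libraries after CSDS, a log2 difference of 0.18 ± 0.11 (SE; limma adjusted p = 0.434). For Grin3a the log2 difference after CSDS was -0.13 ± 0.07 (SE; limma adjusted p = 0.378). For Grin3b the exact permutation p was 0.230 among controls and 0.333 after CSDS, and neither passed in the limma fit without a filter (adjusted p = 0.419 and 0.906), where 1.86% and 1.07% of genes did. Of the 7 members 0 had groups without overlap, a pattern that 3.27% of 32265 genes showed among controls and 3.56% after CSDS. These comparisons reuse the libraries of the CSDS comparisons, so their values are not independent of those above.

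Grin2a and Grin2b varied together from library to library. Over the 20 libraries their log2(RPKM + 0.5) values had a Pearson correlation of 0.91, and 0.84 without KO-labelled control 10. Grin1 followed Grin2a with 0.61 and Grin2b with 0.48, which became 0.11 and 0.01 without that library. The other pairs of tested members lay between -0.15 and 0.33 with it. The libraries share preparation and depth, and these correlations are a description.

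**Figure D3:**
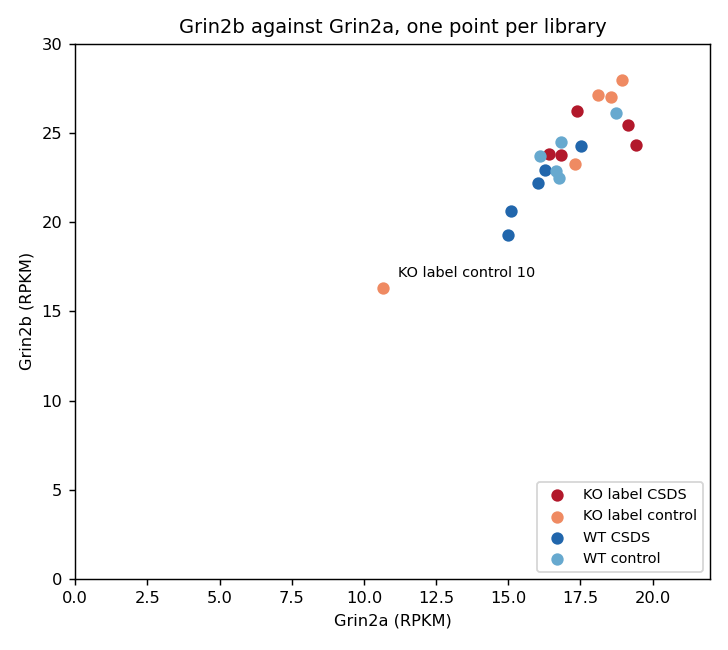
Grin2b RPKM (vertical axis) against Grin2a RPKM (horizontal axis), both from 0, with 1 point for each of the 20 libraries coloured by group. The points run along 1 line, and KO-labelled control 10 lies apart at 10.7 RPKM of Grin2a and 16.3 RPKM of Grin2b.

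KO-labelled control 10 departed from its group in Grin2a, Grin2b and Grin1 and less in the other subunit genes. Against the mean of the other 4 KO-labelled controls it lay at -0.74 on the log2 scale for Grin2a, -0.67 for Grin2b and -0.23 for Grin1. The same deviation was -0.07 for Grin2c, 0.01 for Grin2d and -0.04 for Grin3a. Long genes as a whole were low in this library. Its median deviation was 0.13 for the 4843 genes under 2 kb by the authors' length, 0.03 from 2 to 5 kb, -0.06 from 5 to 10 kb and -0.15 for the 741 genes of 10 kb or more. In the other 19 libraries the last of these medians ran from -0.06 to 0.06. By that length Grin2b, with 24.8 kb, is among the genes of 10 kb or more. Grin2a with 5.30 kb and Grin1 with 9.70 kb are among those from 5 to 10 kb. Grin3a, with 12.3 kb also among the genes of 10 kb or more, did not share the low values. The part of gene length in the low Grin2a and Grin2b values of this library was not tested, and it was also a library with high Xist.

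**Figure D4:**
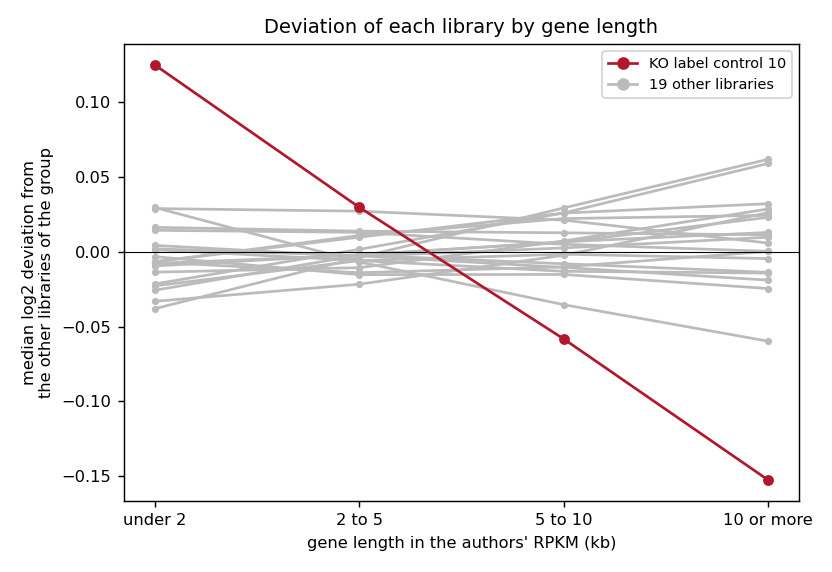
Median log2 deviation of each library from the other libraries of its group (vertical axis) for genes in 4 classes of length in kb by the authors' RPKM (horizontal axis). Each line is 1 library. KO-labelled control 10 runs from 0.13 for short genes down to -0.15 for genes of 10 kb or more, while the other 19 libraries stay between -0.06 and 0.06.

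Several genes overlap the subunit genes in the tables' coordinates, and because strand was not kept their reads cannot be told apart where exons coincide. Grin1os is an antisense transcript that shares 1307 exon bases with Grin1, 13.5% of the exon bases of Grin1. It averaged 67.2 ± 1.67 RPKM in KO-labelled CSDS and 60.1 ± 4.35 RPKM in KO-labelled control libraries (SD, n = 5 each) and rose by 0.16 ± 0.05 (SE; limma adjusted p = 0.0451). Leaving out single libraries ended that call in 8 of 10 cases, with limma adjusted p of 0.0121 to 0.0936. In WT mice its difference was 0.09 (limma adjusted p = 0.0623). Inside Grin2b, Gm22892, annotated as a microRNA gene on the opposite strand with 86 of its 105 exon bases on exons of Grin2b, fell in WT mice. It was 18.2 to 21.8 RPKM after CSDS and 26.0 to 32.4 RPKM in WT controls, a log2 difference of -0.61 ± 0.07 (SE; limma adjusted p = 0.000473). Gm14329, a long non-coding RNA that shares 143 of its 591 exon bases with Grin2b, also fell in WT mice, by 0.52 with an SE of 0.10 (limma adjusted p = 0.00662). With all 4 groups in 1 fit the Gm14329 call was lost (limma adjusted p = 0.0687). In KO-labelled mice the differences were -0.05 for Gm22892 and 0.09 for Gm14329 (limma adjusted p = 0.913 and 0.849). The differences of these effects were 0.56 ± 0.27 and 0.61 ± 0.28 (SE; limma adjusted p = 0.439 and 0.427), so they were not shown to differ between genotypes. In Grin2c, the annotated microRNA gene Gm25837, with 91 of 108 exon bases on exons of Grin2c, rose in KO-labelled mice. It was 19.5 to 22.5 RPKM after CSDS and 15.9 to 17.7 RPKM in KO-labelled controls, a log2 difference of 0.32 ± 0.05 (SE; limma adjusted p = 0.00206), against 0.18 ± 0.11 (limma adjusted p = 0.271) in WT mice. Kdelr1, which overlaps Grin2d, and Ppp3r2, which lies inside Grin3a, share no exon bases with them.

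The genes that act with the receptor were read from 5 lists, each against the share of all genes called above. Co-agonist supply (synthesis and transport of glycine and serine) had 9 tested genes. In KO-labelled CSDS mice 1 rose, the glycine transporter gene Slc6a9 by 0.16 ± 0.03 (SE; limma adjusted p = 0.0139). In WT mice 1 rose, Phgdh, the first enzyme of serine synthesis, by 0.19 ± 0.04 (SE; limma adjusted p = 0.0103). The median log2 difference of the list was 0.04 in KO-labelled and 0.05 in WT mice, with -0.01 and -0.00 over all tested genes.

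Of 22 scaffold and trafficking genes, 1 fell and 0 rose in KO-labelled CSDS mice, and 5 fell and 0 rose in WT CSDS mice. In WT mice the postsynaptic scaffold genes Shank2, Shank3 and Dlg1 fell by 0.14, 0.18 and 0.14 on the log2 scale (limma adjusted p = 0.00402, 0.0119 and 0.0156). In KO-labelled mice the fallen gene was Lin7c, with -0.12 (limma adjusted p = 0.0485), a call that leaving out single libraries ended in 8 of 10 cases (limma adjusted p of 0.0255 to 0.112). The list medians were 0.03 in KO-labelled and -0.02 in WT mice.

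Of 17 kinase and phosphatase genes, 2 rose and 0 fell in KO-labelled CSDS mice, and 2 rose and 2 fell in WT CSDS mice. Ptpn5, whose phosphatase STEP removes phosphate from GluN2B, was 21.05 ± 0.953 RPKM in KO-labelled CSDS and 16.5 ± 0.339 RPKM in KO-labelled control libraries (SD, n = 5 each). It rose there by 0.34 ± 0.03 (SE; limma adjusted p = 0.000461). In WT mice it was 20.2 ± 0.999 RPKM after CSDS and 20.6 ± 2.41 RPKM in controls, a log2 difference of -0.02 (limma adjusted p = 0.839). The difference of these effects was 0.36 (limma adjusted p = 0.0758), short of the threshold. Among controls Ptpn5 was lower under the knockout label, with a log2 difference of -0.30 (limma adjusted p = 0.00621), a comparison that shares the KO-labelled controls. Camk2b, a subunit of the kinase that binds GluN2B, rose by 0.18 in KO-labelled mice (limma adjusted p = 0.0262) and by 0.18 in WT mice (limma adjusted p = 0.0361). Leaving out single libraries ended these Camk2b calls in 4 of 10 cases in KO-labelled and 5 of 10 in WT mice. In WT mice Dapk1, a death-associated kinase, fell by 0.20 and Cdk5, a neuronal kinase, rose by 0.09 (limma adjusted p = 0.00362 and 0.0134). The list medians were -0.01 in KO-labelled and -0.02 in WT mice.

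Of 11 downstream signalling genes, 3 rose and 2 fell in KO-labelled CSDS mice, and 0 rose and 2 fell in WT CSDS mice. Nos1, the calcium-dependent nitric oxide synthase, fell by 0.33 in KO-labelled and by 0.27 in WT mice (limma adjusted p = 0.0102 and 0.00652). Creb1, a calcium-regulated transcription factor, fell by 0.28 in KO-labelled and by 0.25 in WT mice (limma adjusted p = 0.00558 and 0.00181). Rasgrf1, a calcium-dependent exchange factor for Ras, rose by 0.28 in KO-labelled mice (limma adjusted p = 0.0137). The list medians were -0.02 in KO-labelled and -0.02 in WT mice.

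Of 11 tested immediate early genes, which respond to synaptic calcium, 5 fell and 0 rose in KO-labelled CSDS mice, and 8 fell and 0 rose in WT CSDS mice. The list medians were -0.34 in KO-labelled and -0.45 in WT mice. In the same libraries the structural RNAs summed to a mean of 72.9 RPKM in KO-labelled CSDS and 292 RPKM in KO-labelled control libraries, and to 64.9 RPKM in WT CSDS and 205 RPKM in WT control libraries. The endothelial markers summed to a mean of 22.5 RPKM in KO-labelled CSDS and 35.7 RPKM in KO-labelled control libraries, and to 23.2 RPKM in WT CSDS and 29.8 RPKM in WT control libraries. The part of either in the immediate early gene values was not tested. Fosb was 0.810 ± 0.0415 RPKM in KO-labelled CSDS and 2.26 ± 0.147 RPKM in KO-labelled control libraries, and 1.01 ± 0.0667 RPKM in WT CSDS and 2.91 ± 0.208 RPKM in WT control libraries (SD, n = 5 each). Homer1, which encodes postsynaptic scaffold proteins, fell by 0.59 in KO-labelled and by 0.81 in WT mice (limma adjusted p = 0.000252 and 0.000216). Fosl2 fell by 0.42 in KO-labelled and by 0.48 in WT mice (limma adjusted p = 0.000975 and 0.000453). Fosb fell by 1.07 in KO-labelled and by 1.17 in WT mice on the log2(RPKM + 0.5) scale (limma adjusted p = 9.77e-06 and 7.15e-06). With the 3 libraries of conflicting labels placed by treatment field, every CSDS call named here in KO-labelled mice was lost except that of Ptpn5, with limma adjusted p of 0.0805 for Fosb and 0.0795 for Homer1. In WT mice that placement ended the calls of Phgdh, Nos1, Dapk1, Cdk5, Camk2b, Shank2, Shank3 and Dlg1 and kept those of Creb1, Fosb, Homer1 and Fosl2. Immediate early genes summed to 94.1 RPKM in KO-labelled 10B, 94.4 in KO-labelled 11 and 106 in WT 9B. KO-labelled controls had 87.5 to 125 and KO-labelled CSDS libraries 71.1 to 85.2 RPKM. WT controls had 98.0 to 128 and WT CSDS libraries 74.3 to 89.8 RPKM. The structural RNAs of 10B, 11 and 9B summed to 56.6, 206 and 40.1 RPKM, with 10B and 9B below every control of their genotype. The endothelial markers summed to 34.6 RPKM in KO-labelled 10B, 34.1 in KO-labelled 11 and 26.7 in WT 9B. For these markers KO-labelled controls had 30.6 to 38.9 and KO-labelled CSDS libraries 19.7 to 24.9 RPKM. The WT ranges were 27.1 to 34.2 RPKM in controls and 21.9 to 26.3 RPKM after CSDS, so 9B lay between them. Which label is right was not tested. In the difference of the CSDS effects 0 genes of each of the 5 lists passed.

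For KO label against WT among controls, 1 co-agonist gene, Shmt2, was higher by 0.20 on the log2 scale, while the scaffold gene Shank1 was lower with -0.24 and Lin7c higher with 0.13 (limma adjusted p = 0.0317, 0.0335 and 0.0496). Of the immediate early genes 2 were lower there, Fosb with -0.31 and Fosl2 with -0.20 (limma adjusted p = 0.00145 and 0.0402). Of these, the calls of Shmt2, Shank1, Lin7c and Fosl2 were lost in 7, 4, 7 and 9 of 10 cases when single libraries were left out. The call of Fosb among controls was lost with the conflicting libraries placed by treatment field (-0.31, limma adjusted p = 0.563). After CSDS the serine transporter gene Slc1a4 was higher under the knockout label by 0.16 and Fosb lower with -0.21 (limma adjusted p = 0.0241 and 0.0307). These calls were lost in 5 and 7 of 10 cases.

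By correlation of log2(RPKM + 0.5) over the 20 libraries among 15964 genes, the pattern of Grin1 was most like that of Grin1os (0.94), Nup214 (0.88) and Gm11149 (0.88). Grin2a was most like Ash1l (0.93), Mycbp2 (0.92) and Arfgef3 (0.92), and these became 0.77, 0.79 and 0.81 without KO-labelled control 10. Grin2b was most like Cacna1e (0.95), Ppp1r9a (0.94) and Kcnq3 (0.94), and these stayed at 0.91 to 0.92 without it. Cacna1e and Kcnq3 encode voltage-gated channels of neurons. Grin2c was most like Mir7077 (0.82), Abcg1 (0.79) and Acsl6 (0.77), Grin2d like Gm12404 (0.79), Cpne5 (0.79) and Podxl2 (0.77), and Grin3a like Gm21092 (0.77), Gm21811 (0.77) and 6820431F20Rik (0.75). The libraries share groups, preparation and depth.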

How the data were processed

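Poly(A) RNA of 23 hippocampal libraries was sequenced as 75 bp single-end reads from a kit that keeps no strand, per the labels' protocols, and aligned with STAR to mm10, per the submitters' processing notes. For the counting tool and the annotation the entry is "not given in the sources used here". The authors deposited 1 table per genotype with RPKM for each library. Their deposited log2 fold changes run control over CSDS, and their p-values and false discovery rates stand beside a likelihood ratio score, per the file headers.

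For 3 libraries the title and the treatment field disagree (WT 9B, KO-labelled 11 and 10B). They entered alternatives only, and 20 remained. Symbols came from the WT table. Genes with a mean of at least 0.5 RPKM were tested as log2(RPKM + 0.5) with limma-trend (limma 3.58.1, R 4.3.3), two-sided, Benjamini-Hochberg adjusted over all genes at 0.05. The CSDS comparisons used the 10 libraries of a genotype and the other 3 used all 20, across both tables. Whether the tables were normalised together was not tested. The added pseudocount shrinks folds of genes with low RPKM. Depth came from single-exon genes, whose values fell within 0.05 of a whole read in 94.5 to 95.5% of cases. It gave about 19959 reads per library for Grin1 and 41 for Grin3b (medians, with annotated exon lengths), and covers counting error only. The script was tested on simulated data.

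The text names the members, Nrsn2, overlapping genes, up to 3 called genes of smallest p per list and comparison, and the 3 genes most like each tested member. Members, lists and rule were chosen with earlier results of these data known. Alternatives were other pseudocounts, filters, scalings, libraries and fits. Same-numbered WT and KO-labelled samples were not treated as pairs in the main fits, since the labels do not name them as such. Of 10 such pairs 3 correlated above 0.1 (-0.11 to 0.37), all of them controls. The highest was that of the controls numbered 10, both with high Xist. The part of the sex-linked pattern in it was not tested, and pairing is not excluded.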

Additional observations from a re-analysis of the deposited data

Results flagged for a closer look

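In each of 28 sets of 5 libraries (7 members in 4 groups) the highest and lowest library was compared with its nearest neighbour, a check in which chance flags about 1 in 20 groups. For Grin2a, KO-labelled control 10 stood at 10.67 RPKM, and the nearest KO-labelled control had 17.3 RPKM. WT control 6 stood above the other WT controls for Grin2a with 18.74 RPKM, the nearest having 16.8 RPKM.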

How the results depend on the processing

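Of 676 alternative values for the members, 647 kept direction and side of the threshold, 1 lost its call (Grin3b in KO-labelled CSDS mice, -0.21 by treatment field, chosen after seeing the data), 3 passed it anew and 25 changed sign. Of 680 values for the called partner and overlapping genes, 570 kept the call, 110 lost it and 0 changed sign. The count of members called in KO-labelled CSDS mice, 0 as reported, was 1 without a filter (Grin3b), 1 with quantile normalization (Grin2d, 0.15, limma adjusted p = 0.0366) and 1 with all 4 groups in 1 fit (Grin1, 0.13, limma adjusted p = 0.0441). When single libraries were left out it stayed at 0 to 0 in each comparison except KO label against WT among controls, with 0 to 1. The count of all genes called was 143 in KO-labelled CSDS mice with the 3 conflicting libraries placed by treatment field (2747 as reported, and 1658 to 3668 without single libraries), and 1240 in WT CSDS mice (4093 as reported, and 3077 to 4016). For the difference of effects (27) it was 181 without control 10 of both genotypes, 98 by title and 1 by treatment field, and 16 to 244 without single libraries. Among controls (722) it was 480 with median centring, 1627 by title and 399 by treatment field, and 368 to 890. After CSDS (409) it was 629 without control 10 of both genotypes and 245 to 474. The cause was not tested.

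Signs that changed belonged to differences that were not called. In WT CSDS mice Grin2d (0.01) became -0.039 without control 10 of both genotypes and -0.0067 by treatment field, and ran from -0.039 to 0.053 without single libraries. In KO-labelled CSDS mice Grin2a became -0.033 and Grin2b -0.088 without control 10 of both genotypes, and without single libraries they ran from -0.033 to 0.167 and from -0.088 to 0.102. Grin3a (0.01) became -0.013 by treatment field and ran from -0.036 to 0.067. For KO label against WT among controls, Grin2b became -0.010 with median centring and -0.00018 with quantile normalization and ran from -0.055 to 0.135. Grin2a became 0.093 without control 10 of both genotypes and ran from -0.102 to 0.098, and Grin1 ran from -0.049 to 0.021. The cause was not tested.

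By their labels, samples shared only a number between genotypes, and 4 of 10 correlated best with their own number. With the number as a replicate block, 23 genes were called in the difference of effects, 544 among controls and 282 after CSDS, and 0 members in each. Depth limits Grin3b, with 26 to 86 reads per library.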
